A study of Mus musculus with 42 samples.

Results

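Dimly fluorescent epithelial cells were compared between the pylorus, the outlet region of the stomach, and the small intestine of the same reporter line. The comparison held 6 of the 42 arrays of the series, chosen by their titles: 4 of pyloric Lgr5Lo cells and 2 of small intestinal Lgr5Lo cells, which were all the arrays of that gate and organ. On each array 41345 probe sets were read, and those with 1 gene symbol gave 22180 genes. Lgr5-EGFP-IRES-CreERT2 mice carry green fluorescent protein and an inducible Cre recombinase under the control of Lgr5, the gene of a Wnt-amplifying receptor. All animals were healthy and untreated adults, at least 7 to 8 weeks old and of either sex. Per the labels' protocols, glands were freed with a chelator, digested to single cells, stained with propidium iodide and sorted, and the RNA was amplified before it was put on Affymetrix arrays. That protocol text is shared by all samples and describes the pylorus. The labels call the Lgr5Lo cells of both organs differentiated cells and call the repeats biological replicates, without naming the animals behind them. The p-values therefore measure a spread between arrays and not a known spread between animals. That spread was pooled over the 18 sorted arrays of this line, which include brightly fluorescent cells and the colon.

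As background, the pyloric gland and the intestinal crypt are both fed by dividing cells near their base, and Lgr5 marks stem cells in each. Their offspring differ. Pyloric glands yield surface pit cells that secrete Muc5ac and Tff1, gland mucous cells that secrete Muc6 and Tff2, and gastrin-producing endocrine cells, whereas intestinal crypts yield absorptive cells with a brush border, goblet cells, Paneth cells and a different set of endocrine cells. The homeobox factors Cdx1 and Cdx2 are known for holding the intestinal identity, and Sox2 is a factor of the stomach. Green fluorescent protein is passed to daughter cells at division, so dim cells include recent offspring of bright ones.

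All values are log2 intensities of the authors' normalized table, differences are log2 differences followed by their standard error, and a gene was called when its limma p adjusted over all 22180 genes was under 0.05. The 6 array medians lay between 3.83 and 4.16. Detection calls are not part of the table. Where only 1 group lay near or under those medians, the difference may therefore be understated. Where both groups did, it cannot be told from a difference of background signal. In sorted bulk samples, fewer cells of a type and less RNA per cell cannot be told apart. Over all genes, pairs of pyloric arrays correlated at 0.913 to 0.969, the pair of small intestinal arrays at 0.972, and arrays of different organs at 0.870 to 0.933. Replicate 3 had the lowest mean correlation with the other pyloric arrays (0.927). Pyloric replicate 1 had the highest mean over all genes, 4.91 against 4.72 to 4.74 in replicates 2 to 4. It was the highest pyloric array for 9065 of the 22180 genes. Without it the median difference of all genes was 0.06 in place of 0.11. What set it apart was not tested. Pyloric replicate 4 was the highest for 4240 genes, but often so in gastric as well as intestinal lists. Those counts are given with the Paneth cell genes.

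The labelled organs could be told from their markers on every array. Tff1, a secreted trefoil peptide of pit cells, stood at 12.46, 12.64, 12.59 and 12.58 in the pylorus and at 4.10 and 4.38 in the small intestine. Muc5ac, the mucin of the stomach surface, stood at 11.57, 11.02, 11.30 and 11.79 in the pylorus and at 3.74 and 3.64 in the small intestine. The organs did not overlap in either gene, and the small intestine lay near or under the array medians. Sucrase-isomaltase (Sis), a disaccharidase of the brush border, stood at 3.31, 3.52, 3.12 and 5.41 in the pylorus and at 9.22 and 10.31 in the small intestine. Pyloric replicate 4 was the highest of its group in Sis and still lay far under both small intestinal arrays. Cdx1 stood at 3.72, 3.83, 4.92 and 4.27 in the pylorus and at 5.88 and 6.77 in the small intestine, again without overlap, but with the smallest gap of these 4 markers. The differences were 8.33 ± 0.24 higher in the pylorus for Tff1 (adjusted p = 6.55e-15), 7.73 ± 0.51 for Muc5ac (adjusted p = 1.78e-09), 5.92 ± 0.75 higher in the small intestine for Sis (adjusted p = 1.25e-05) and 2.14 ± 0.49 for Cdx1 (adjusted p = 0.00768). The call of Cdx1 was lost without small intestine replicate 2 and in a fit that added unsorted tissue and crypts.

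Lgr5 itself, the gene behind the gate, stood at 6.84, 6.56, 5.98 and 6.66 in the pylorus and at 5.52 and 6.20 in the small intestine. It did not pass the test (difference 0.65 ± 0.40, adjusted p = 0.369), and the lowest pyloric array lay under the higher small intestinal one. In Lgr5Hi cells, the brightly fluorescent gate, the means were 8.53 ± 0.50 (SD, n = 4) in the pylorus and 8.34 ± 0.03 (n = 2) in the small intestine. Aqp5, a water channel, stood at 8.26, 8.50, 7.42 and 8.48 in the pylorus and at 3.79 and 5.05 in the small intestine, with no overlap, and was higher in the pylorus by 3.75 ± 0.41 (adjusted p = 2.31e-06).

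Across the genome, 1778 of 22180 genes were called, or 8.02%. Of these 808 were higher in the pylorus (3.64%) and 970 in the small intestine (4.37%), and 1546 differed at least 2-fold (6.97%). Differences of at least 16-fold were seen in 136 genes (0.613%), 50 of them higher in the pylorus (0.225%) and 86 in the small intestine (0.388%). In 635 of the called genes the lower group lay under 4.16, the highest of the array medians. Their differences may be understated, or may be of background signal where both groups lay that low. In 25.6% of all genes the arrays of the organs did not overlap, and 1752 genes (7.9%) were both called and without overlap. The count of calls rested on the few small intestinal arrays: it was 860 without small intestine replicate 1 and 1189 without replicate 2.

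**Figure D1:**
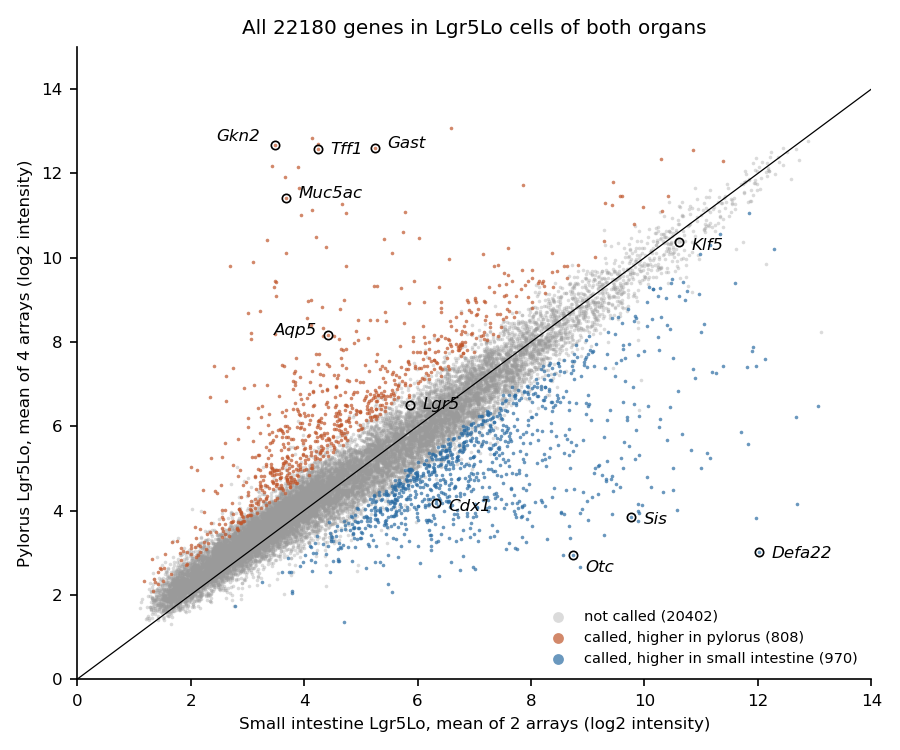
Each point is 1 of 22180 genes, with its mean log2 intensity in 2 small intestinal Lgr5Lo arrays on the x axis and in 4 pyloric Lgr5Lo arrays on the y axis; coloured points were called. Most genes lie along the diagonal of equal levels, while Tff1 and Muc5ac lie near the left edge of the plot and Sis and Defa22 near its lower right.

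The largest called difference toward the pylorus was that of Gkn2, a gastrokine of pit cells, at 12.64, 12.68, 12.66 and 12.68 in the pylorus and at 3.55 and 3.41 in the small intestine, a difference of 9.18 ± 0.30. Pla2g1b, a secreted phospholipase A2, stood at 12.18, 12.26, 11.80 and 12.48 in the pylorus and at 3.57 and 3.28 in the small intestine, a difference of 8.76 ± 0.28. Both were near the top of the scale in the pylorus and at or under the array medians in the small intestine. Tff2, the trefoil peptide of gland mucous cells (8.70 ± 0.55), Gkn1, the other pit gastrokine (8.46 ± 0.34), Ctse, an aspartic protease (8.27 ± 0.28), and Psca, a membrane-anchored surface protein (8.26 ± 0.50), followed. The rest of the 15 largest were Tff1, Muc5ac, Mucl3, a mucin-like protein (7.76 ± 0.47), Gast, the gastrin gene (7.35 ± 0.23), Vsig1, a junctional adhesion protein (7.13 ± 0.30), Atp4b, the beta subunit of the acid pump (7.07 ± 0.40), Chia1, an acidic chitinase (7.06 ± 0.77), Muc6, the gland mucin (7.00 ± 0.34), and Anxa10, an annexin (6.80 ± 0.40). Their adjusted p-values were at most 1.97e-06. Chia1 lost its call with pyloric Lgr5Lo arrays of another reporter line, Lgr5-EGFP-DTR, in place of these (difference 2.47, limma adjusted p = 0.222).

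**Figure D2:**
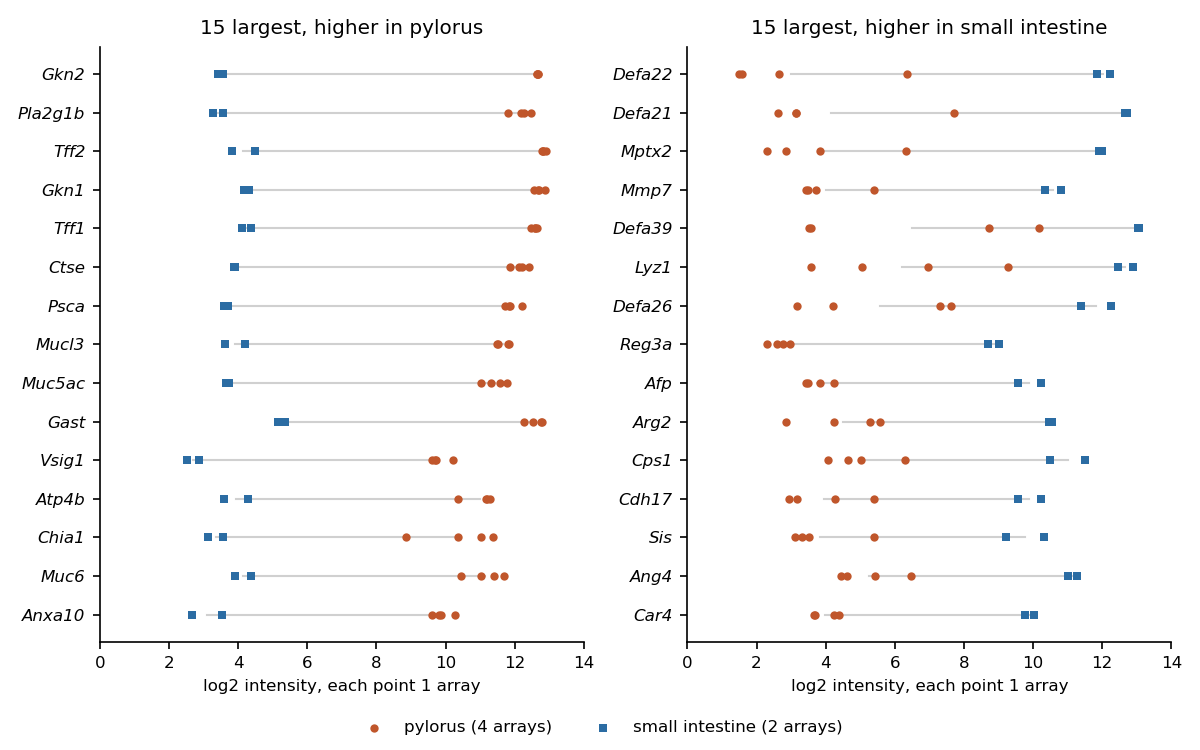
Log2 intensities of the 15 called genes with the largest difference in each direction, with 1 point per array: 4 circles for the pylorus and 2 squares for the small intestine. The pyloric circles of genes such as Gkn2 and Tff1 almost coincide, while those of Lyz1 run from 3.59 to 9.27 and those of Defa39 from 3.52 to 10.16.

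Of 15 genes of surface pit cells, 14 were called higher in the pylorus and 0 in the small intestine, with a median difference of 7.13 against 0.11 over all genes. The exception was Capn8, a calpain, with a difference of 0.22 ± 0.45 (adjusted p = 0.813). Members beyond the 15 largest genes included Sptssb, a small partner of serine palmitoyltransferase (5.92 ± 0.86), Vsig2, a relative of Vsig1 (4.86 ± 0.35), and Aldh3a1, an aldehyde dehydrogenase (3.22 ± 0.45). The pyloric arrays were alike in this group, with means over the 15 members from 10.31 to 10.71, and lay at 4.12 and 4.14 in the small intestine.

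Of 10 genes of gland mucous cells, 8 were called higher in the pylorus, with a median difference of 4.46. Pgc, the pepsinogen C gene, stood at 13.08, 13.12, 12.85 and 13.23 in the pylorus and at 7.11 and 6.07 in the small intestine (6.48 ± 0.30, adjusted p = 8.5e-12). A4gnt, the enzyme that puts terminal N-acetylglucosamine on Muc6, stood at 6.90, 8.10, 8.75 and 9.08 in the pylorus and at 2.75 and 3.36 in the small intestine (5.15 ± 0.60, adjusted p = 4.73e-06), with pyloric replicate 1 the lowest of its group. Gkn3, a gastrokine of gland cells, stood at 10.85, 12.19, 11.81 and 12.01 in the pylorus and at 8.28 and 7.44 in the small intestine (3.86 ± 0.33), above the array medians in both organs. The 2 members not called were Galnt6, an enzyme that starts mucin-type glycans, and Bhlha15, a factor of secretory cells.

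Genes of chief and parietal cells, which make pepsinogen and acid, were also higher in the pylorus: 9 of 12 were called, with a median of 2.97. Atp4a, its catalytic subunit, stood at 10.85, 11.32, 11.32 and 11.57 in the pylorus and at 4.57 and 4.76 in the small intestine (6.60 ± 0.36, adjusted p = 8.49e-11). Cblif, gastric intrinsic factor, stood at 11.27, 11.18, 10.21 and 11.54 in the pylorus and at 4.42 and 5.06 in the small intestine (6.31 ± 0.32, adjusted p = 4.29e-11). Kcne2 (2.69 ± 0.33) and Kcnj15 (2.21 ± 0.36), potassium channel genes of parietal cells, were called too. Lipf, gastric lipase, stood between 2.10 and 3.14 in the pylorus and at 2.04 and 2.12 in the small intestine and was not called.

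Transcription factors followed the organs. Of 12 genes on the stomach list, 9 were called higher in the pylorus, with a median of 1.34. Sox2 stood at 5.79, 7.00, 6.79 and 6.83 in the pylorus and at 3.16 and 2.10 in the small intestine (3.97 ± 0.68, adjusted p = 0.000437), and Foxq1, a forkhead factor of gastric mucous cells, at 9.81, 9.25, 8.75 and 9.50 in the pylorus and at 5.10 and 5.47 in the small intestine (4.05 ± 0.30, adjusted p = 1.17e-08). The organs were apart in both. Nkx6-3 (2.62 ± 0.35), a homeobox factor of the distal stomach, Klf4 (2.39 ± 0.36), a factor of differentiating epithelium, and Runx1 (2.05 ± 0.34) were called as well. Pdx1, a homeobox factor of the gastric outlet, duodenum and pancreas, differed less (1.04 ± 0.27, adjusted p = 0.0204). Barx1 and Osr1, which act mainly in the mesenchyme of the stomach, and Elf3 were not called.

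Of 19 measured factors on the intestinal list, 12 were called higher in the small intestine and 1 in the pylorus, with a median of 2.14 toward the small intestine. Cdx2 stood at 3.80, 4.49, 4.61 and 3.80 in the pylorus and at 7.52 and 8.00 in the small intestine (3.59 ± 0.50, adjusted p = 4.43e-05). Isx, a homeobox factor that restrains vitamin A uptake, stood at 4.04, 4.60, 4.63 and 4.81 in the pylorus and at 8.53 and 8.97 in the small intestine (4.23 ± 0.37, adjusted p = 1.17e-07). Hnf4g, a nuclear receptor of enterocytes, stood at 5.43, 5.60, 5.96 and 6.66 in the pylorus and at 9.45 and 10.27 in the small intestine (3.95 ± 0.44, adjusted p = 2.83e-06). In all 3 the organs were apart, with pyloric levels near the array medians for Cdx2 and Isx but not for Hnf4g. Its relative Hnf4a differed less and was well above the medians in both organs (means 7.13 and 8.22, difference 1.10 ± 0.31, adjusted p = 0.029). Nuclear receptors that sense ligands were among the called genes: Nr1i3, the xenobiotic receptor CAR (4.01 ± 0.31), Vdr, the vitamin D receptor (2.99 ± 0.41), Nr1i2, the receptor PXR (2.44 ± 0.46), Ppara, a fatty acid sensor (2.22 ± 0.31), and Nr1h4, the bile acid receptor (1.65 ± 0.29).

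The exception in direction was Pparg, a fatty acid receptor, which stood at 8.74, 7.91, 8.51 and 8.36 in the pylorus and at 5.82 and 6.38 in the small intestine and was higher in the pylorus by 2.28 ± 0.40 (adjusted p = 0.000638). Gata4, Gata6, Klf5 and Tcf7l2, which act in both stomach and intestine, were not called. Klf5 stood at 10.32, 10.30, 10.34 and 10.53 in the pylorus and at 10.26 and 10.96 in the small intestine (difference toward the small intestine 0.24 ± 0.26).

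The promoters of 3 genes that part the organs are shown so that the motifs named after these factors can be seen. They are the 250 bases before the RefSeq transcription start (GRCm38.p6), read 5′ to 3′ on the gene's strand, and capitals mark matches. Both strands were searched. The words of the Cdx factors were CAATAAA and, with 1 letter changed, CCATAAA. The word searched for the Gata factors was AGATAA. For the Hnf4 receptors it was CAAAGTNCA, and for the Sox factors it was CATTGTT. Sis lies at chr3:72967864-72968113 on the minus strand, Fabp1, the liver-type fatty acid binding protein of enterocytes, at chr6:71199629-71199878 on the plus strand, and Gkn1 at chr6:87350916-87351165 on the minus strand.
Sis: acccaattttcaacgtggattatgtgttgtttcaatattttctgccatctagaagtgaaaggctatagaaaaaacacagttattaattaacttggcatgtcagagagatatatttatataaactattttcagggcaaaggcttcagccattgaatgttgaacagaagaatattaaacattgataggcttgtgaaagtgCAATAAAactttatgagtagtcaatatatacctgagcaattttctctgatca
Fabp1: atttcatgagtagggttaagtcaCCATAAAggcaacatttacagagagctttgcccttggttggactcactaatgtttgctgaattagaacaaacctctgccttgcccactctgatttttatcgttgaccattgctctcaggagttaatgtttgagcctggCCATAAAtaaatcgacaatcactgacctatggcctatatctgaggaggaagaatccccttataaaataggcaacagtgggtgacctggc
Gkn1: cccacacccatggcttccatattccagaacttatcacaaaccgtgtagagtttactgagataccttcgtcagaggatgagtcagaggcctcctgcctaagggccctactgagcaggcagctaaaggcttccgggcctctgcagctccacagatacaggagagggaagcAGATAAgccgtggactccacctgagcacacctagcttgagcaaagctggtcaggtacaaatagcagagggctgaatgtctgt
Sis held 1 match, CAATAAA, 52 to 46 bases before the start. Fabp1 held CCATAAA at 227 to 221 and at 89 to 83 bases before the start. Gkn1 held AGATAA at 82 to 77 bases. Windows of 250 bases were at hand for 27025 genes, of which 6.74% held a Cdx word, 10.3% the Gata word, 1.21% the Hnf4 word and 3.36% the Sox word. The Hnf1 palindrome, also searched, was in 0.0592%. Among 764 genes called higher in the small intestine the shares for Cdx, Gata, Hnf4, Sox and Hnf1 were 5.76%, 11.0%, 3.14%, 2.75% and 0.131%. Among 604 called higher in the pylorus they were 3.97%, 6.46%, 0.497%, 1.99% and 0%. Of the 70 small intestinal genes at 16-fold or more with a window, 12 held a Cdx word (17.1%), 10 the Gata word (14.3%), 3 the Hnf4 word (4.29%), 5 the Sox word (7.14%) and 0 the Hnf1 palindrome. Of 35 such pyloric genes 1 held a Cdx word (2.86%), 8 the Gata word (22.9%), 1 the Sox word (2.86%) and 0 the Hnf4 word or the Hnf1 palindrome. The Gata share was thus the larger one on the pyloric side among these genes and on the small intestinal side among all called genes. These are shares of letters in short windows, given with no test, and show no binding.

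Enzymes of the brush border, the microvillous surface that digests and absorbs food, were higher in the small intestine. Of 22 measured, 17 were called in that direction and 0 in the other, with a median of 2.06. Enpep, glutamyl aminopeptidase, stood at 3.34, 3.47, 3.86 and 4.42 in the pylorus and at 8.52 and 9.49 in the small intestine (5.24 ± 0.52, adjusted p = 6.25e-07), and Mme, neprilysin, at 3.40, 3.89, 3.43 and 5.47 in the pylorus and at 8.58 and 9.23 in the small intestine (4.86 ± 0.55, adjusted p = 3.2e-06). Lct, lactase, stood at 3.52, 3.50, 3.91 and 4.52 in the pylorus and at 7.33 and 8.37 in the small intestine (3.99 ± 0.57, adjusted p = 6.55e-05). The organs did not overlap in these, and replicate 4 was the highest pyloric array in each. Mgam, maltase-glucoamylase (4.62 ± 0.47), Mep1b, a meprin subunit (4.57 ± 0.56), and Alpi, intestinal alkaline phosphatase (3.97 ± 0.81), were also called. Akp3, another intestinal phosphatase, overlapped between the organs at 5.18, 6.20, 4.87 and 8.81 in the pylorus and at 7.33 and 7.73 in the small intestine and was not called (adjusted p = 0.325). Vil1, the actin bundler of microvilli, was above the array medians in both organs and differed by 1.14 ± 0.29. Without small intestine replicate 2 the count of called brush border genes was 8.

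Genes of fat uptake and packaging showed the same direction in 14 of 21, with a median of 2.19. Mttp, which loads lipid onto apolipoprotein B, stood at 4.01, 4.34, 3.71 and 5.25 in the pylorus and at 8.48 and 9.68 in the small intestine (4.75 ± 0.45, adjusted p = 2.55e-07), and Npc1l1, the cholesterol uptake protein, at 4.79, 4.58, 4.24 and 5.94 in the pylorus and at 8.69 and 9.54 in the small intestine (4.23 ± 0.46, adjusted p = 1.97e-06). Neither overlapped between the organs, and replicate 4 was again the highest pyloric array. Fabp1 was above the array medians in both organs, at 7.25, 7.68, 7.50 and 9.07 in the pylorus and at 11.90 and 11.91 in the small intestine (4.03 ± 0.91, adjusted p = 0.00633). Apoc2, a cofactor of lipoprotein lipase (4.11 ± 0.50), Abcg5 and Abcg8, which pump sterols back to the lumen (2.92 ± 0.27 and 2.72 ± 0.26), and Apoa4, a chylomicron protein (3.75 ± 0.78), were called. Clps, the cofactor of pancreatic lipase, ran the other way, at 12.71, 12.54, 12.40 and 12.52 in the pylorus and at 10.50 and 11.21 in the small intestine, and was higher in the pylorus by 1.69 ± 0.32 (adjusted p = 0.00129), but no member was called on that side without small intestine replicate 1. Without small intestine replicate 2, 9 members were called higher in the small intestine.

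Of 25 solute carriers and channels of absorption, 15 were called higher in the small intestine and 1 in the pylorus, with a median of 1.73. Slc51a, a subunit of the basolateral bile acid exporter, stood at 3.97, 4.36, 3.79 and 4.78 in the pylorus and at 8.59 and 9.37 in the small intestine (4.75 ± 0.62, adjusted p = 1.91e-05). Slc26a3, an apical chloride-bicarbonate exchanger (4.14 ± 0.81), Slc13a1, a sulfate transporter (3.94 ± 0.42), Slc7a9 with its partner Slc3a1, which take up cystine and basic amino acids (3.79 ± 0.31 and 3.47 ± 0.34), Slc5a1, the sodium-glucose transporter (3.21 ± 0.44), and Slc15a1, the peptide transporter (3.13 ± 0.63), were among them. Trpv6, a calcium channel, was the 1 called in the pylorus (0.96 ± 0.28, adjusted p = 0.0346), at levels near the array medians. On the pyloric side 0 were called without pyloric replicate 1 or 4 or either small intestinal array, and 2 without pyloric replicate 3. Slc10a2, the bile acid transporter of the ileum, lay under the medians in both organs (means 3.49 and 3.32).

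Metabolic enzymes of the enterocyte differed too. Of 10 genes of fructose and glucose metabolism 8 were called higher in the small intestine (5 without small intestine replicate 2), with a median of 1.48. Mlxipl, a carbohydrate-sensing factor, stood at 5.27, 4.92, 4.95 and 5.08 in the pylorus and at 9.26 and 9.10 in the small intestine (4.12 ± 0.35, adjusted p = 7.76e-08). Khk and Tkfc, which act in succession on fructose, differed by 2.68 ± 0.31 and 2.93 ± 0.34, and Fbp1, of glucose synthesis, by 3.96 ± 0.37. Hk2 and Pklr, of glycolysis, were not called.

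In the urea cycle and the synthesis of citrulline and arginine, 8 of 11 genes were called higher in the small intestine, with a median of 1.93, and Cps1 and Arg2 were among the 15 largest genes of that side. Cps1, which makes carbamoyl phosphate, stood at 4.63, 4.08, 5.01 and 6.29 in the pylorus and at 10.50 and 11.51 in the small intestine (adjusted p = 3.2e-08). Otc, which makes citrulline from it, stood at 2.67, 2.69, 3.06 and 3.35 in the pylorus and at 8.66 and 8.82 in the small intestine (5.80 ± 0.29, adjusted p = 3.09e-11). Arg2, the mitochondrial arginase, stood at 5.29, 4.24, 2.86 and 5.58 in the pylorus and at 10.55 and 10.46 in the small intestine (6.01 ± 0.56, adjusted p = 2.13e-07). None of the 3 overlapped between organs. Nags, whose product activates Cps1, differed by 2.46 ± 0.24, and Oat, which links ornithine to glutamate metabolism, by 2.75 ± 0.36. Ass1 and Asl, which turn citrulline into arginine, were not called. Ass1 lay at 3.98, 4.84, 2.97 and 4.08 in the pylorus and 3.33 and 3.81 in the small intestine.

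Of 34 enzymes and pumps that handle drugs, 14 were called higher in the small intestine and 3 in the pylorus, with a median of 0.97 toward the small intestine. Ces2e, a carboxylesterase (5.72 ± 0.65), Aldh1b1, a mitochondrial aldehyde dehydrogenase (4.91 ± 0.42), Ugt2b5, a glucuronosyltransferase (4.67 ± 0.68), Cyp4f14, a fatty acid hydroxylase (4.41 ± 0.32), and the efflux pumps Abcg2 (3.89 ± 0.36) and Abcc2 (3.74 ± 0.27) were higher in the small intestine. The 3 on the pyloric side were Adh7, the gastric alcohol dehydrogenase, at 7.54, 6.77, 7.33 and 8.26 in the pylorus and at 4.28 and 4.21 in the small intestine (3.23 ± 0.60, adjusted p = 0.00105), and the glutathione transferases Gsta4 (2.36 ± 0.32) and Gstm1 (1.14 ± 0.24). Members of the Cyp3a and Ugt2b families are similar in sequence, and their probe sets can share signal.

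**Figure D3:**
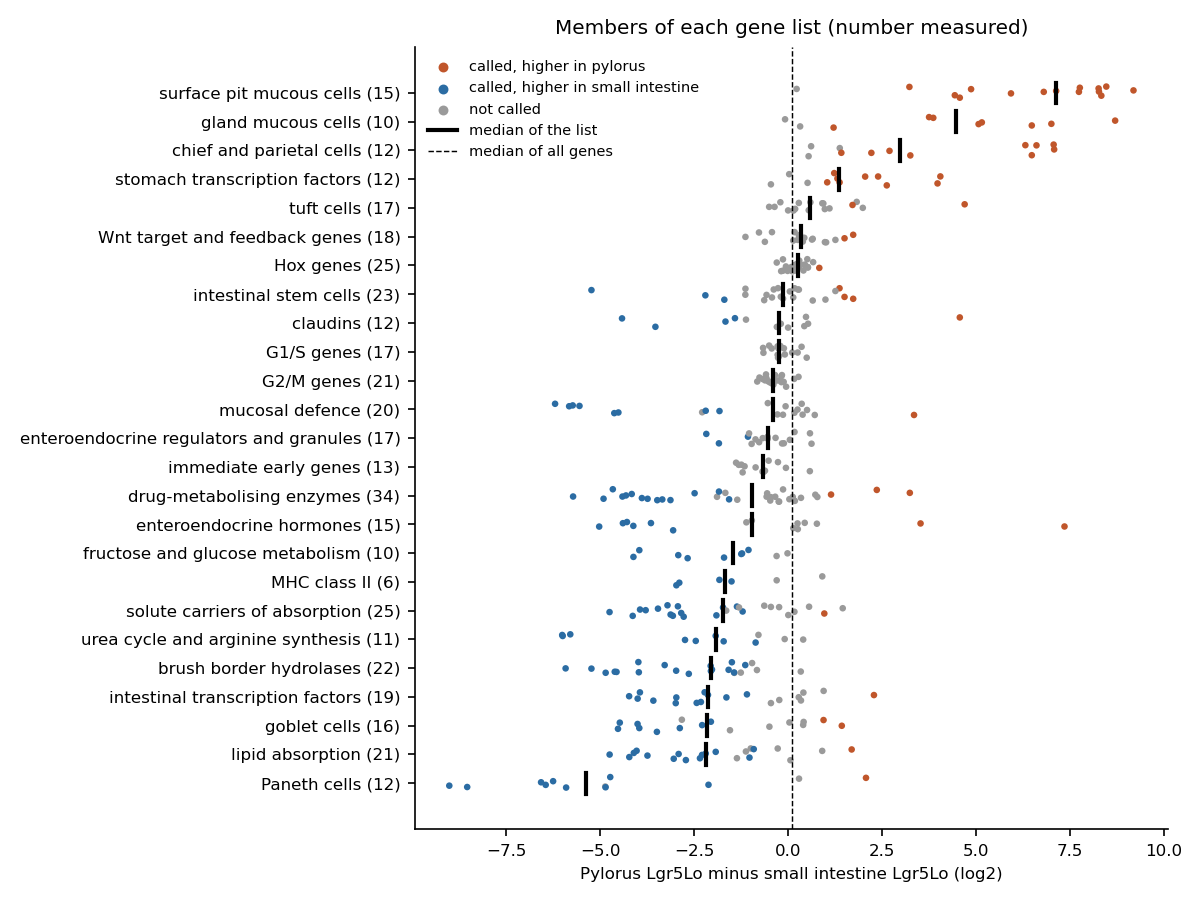
Difference of each measured member, pylorus minus small intestine in log2 units, for 25 gene lists ordered by their median (black bars); coloured points were called and the dashed line is the median of all genes. The 4 gastric lists lie to the right, Paneth, lipid, goblet and brush border genes to the left, and the lists of dividing cells sit close to the dashed line.

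Of 12 Paneth cell genes, 9 were called higher in the small intestine and 1 in the pylorus, with a median of 5.39 toward the small intestine. Paneth cells are granular antimicrobial cells of the crypt base. Defa22, an alpha-defensin, stood at 2.65, 1.57, 1.48 and 6.34 in the pylorus and at 12.21 and 11.84 in the small intestine, the largest difference toward the small intestine (9.02 ± 1.04, adjusted p = 3.85e-06). Mmp7, the protease that activates defensins, stood at 3.72, 3.49, 3.42 and 5.40 in the pylorus and at 10.80 and 10.36 in the small intestine (6.58 ± 0.46, adjusted p = 4.75e-09). Lyz1, the Paneth lysozyme, stood at 3.59, 6.96, 5.06 and 9.27 in the pylorus and at 12.46 and 12.88 in the small intestine (6.45 ± 1.20, adjusted p = 0.00112). The small intestinal arrays were alike, and the pyloric arrays were spread, with replicate 4 the highest in each of these 3.

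Mptx2, a pentraxin of Paneth cells (8.13 ± 0.78), and Ang4, a microbicidal ribonuclease (5.91 ± 0.54), were among the 15 largest genes as well. Defa24, whose pyloric arrays ran from 4.80 to 11.37, was not called (difference 4.87 ± 2.00, adjusted p = 0.161). Defensin genes are nearly identical in sequence and their probe sets can share signal. Habp2, a serine protease, was the member called higher in the pylorus (2.07 ± 0.54, adjusted p = 0.0191; no member was called on that side without pyloric replicate 1 or small intestine replicate 1), and Nupr1, a stress response gene, was not called.

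The Paneth cell genes were uneven among the pyloric arrays. The mean of the 12 Paneth genes was 4.98, 5.90, 4.70 and 7.59 in pyloric replicates 1 to 4, against 10.50 and 10.58 in the small intestine. Replicate 4 was the highest pyloric array for 10 of the 12, for 14 of 22 brush border genes and for 434 of the 970 genes called higher in the small intestine (44.7%), against 19.1% of all genes. It was also the highest for 10 of 15 pit cell genes, 6 of 10 gland mucous genes and 9 of 12 chief and parietal genes. Of 12 stomach transcription factors it was the highest for only 2, and replicate 1 for 6. Of the 808 genes called higher in the pylorus 250 were highest in replicate 4 (30.9%) and 294 in replicate 1. Replicate 1 was the highest for 233 of the 970 genes called higher in the small intestine. The brush border means were 5.03, 5.03, 4.98 and 5.87, against 7.48 and 8.26. Goblet cell genes were higher in replicates 3 and 4 (8.43 and 8.35) than in 1 and 2 (7.14 and 6.93), and endocrine hormones were highest in replicate 2 (7.05). In pyloric Lgr5Lo cells of the Lgr5-EGFP-DTR line, which the labels call progenitor cells, the 3 arrays had Paneth means of 4.71 to 4.87 and brush border means of 4.60 to 4.89. What set replicate 4 apart was not tested. Without it 2110 genes were called.

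**Figure D4:**
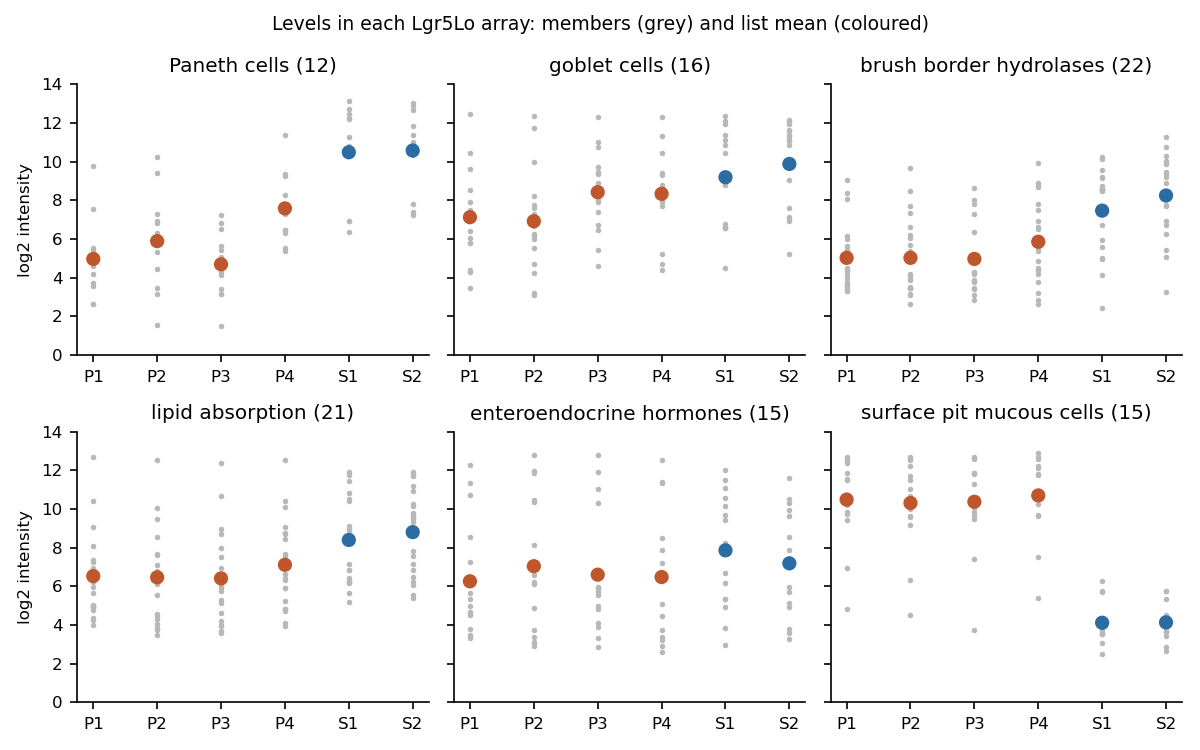
Log2 intensity of the members of 6 gene lists (grey points) and their mean (coloured points) in pyloric arrays P1 to P4 and small intestinal arrays S1 and S2. Paneth genes average 7.59 in P4 and 4.70 in P3, whereas pit cell genes stay between 10.31 and 10.71 in all 4 pyloric arrays.

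Of 16 goblet cell genes, 8 were called higher in the small intestine and 2 in the pylorus, with a median of 2.17 toward the small intestine. Tff3, the intestinal trefoil peptide, stood at 6.04, 6.24, 8.00 and 8.72 in the pylorus and at 11.41 and 11.12 in the small intestine (4.01 ± 0.71, adjusted p = 0.000667), and Guca2a, guanylin, at 6.43, 6.16, 9.38 and 8.39 in the pylorus and at 12.12 and 12.12 in the small intestine (4.53 ± 0.68, adjusted p = 0.000116). Muc2, the main intestinal mucin, stood at 5.80, 4.73, 9.75 and 8.15 in the pylorus and at 8.79 and 11.08 in the small intestine and was not called (2.83 ± 1.01, adjusted p = 0.0975). Pyloric replicate 3 lay above 1 of the small intestinal arrays. Atoh1, the factor that directs cells to secretory fates, was higher in the small intestine by 2.29 ± 0.38, while Spdef (0.94 ± 0.28) and Ern2 (1.42 ± 0.33), which serve mucus-secreting cells of both organs, were higher in the pylorus. On that side 0 goblet cell genes were called without small intestine replicate 1 or with only the 6 arrays in the fit. There was 1 without small intestine replicate 2, without pyloric replicate 2, 3 or 4, or with the replicate block, and there were 5 with the other reporter line. Agr2, needed for mucin folding, was high in both (means 12.37 and 11.97) and was not called.

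Among 20 genes of mucosal defence, 8 were called higher in the small intestine and 1 in the pylorus. The Reg lectins made up most of them: Reg3a stood at 2.60, 2.76, 2.31 and 2.98 in the pylorus and at 8.70 and 9.03 in the small intestine (6.20 ± 0.52, adjusted p = 6.52e-08), and Reg3b (5.83 ± 0.94), Reg4 (5.73 ± 0.71), Reg3g (4.63 ± 0.76) and Reg1 (4.52 ± 1.01) followed. Ccl25, a chemokine that draws lymphocytes to the small intestine, stood at 3.68, 4.38, 4.51 and 5.66 in the pylorus and at 10.02 and 10.20 in the small intestine (5.55 ± 0.38, adjusted p = 2.51e-09). Wfdc2, a secreted protease inhibitor, was the 1 called in the pylorus (3.35 ± 0.24, adjusted p = 5.78e-09). Without small intestine replicate 2, 5 defence genes were called higher there. Of 6 genes of antigen presentation on MHC class II, 4 were higher in the small intestine, among them H2-Ab1 (2.90 ± 0.50) and H2-Aa (2.98 ± 0.58), but 1 was left without that same array.

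Junction genes parted by member. Among 12 claudins, which seal the paracellular space, Cldn18 of the stomach stood at 9.73, 10.03, 10.06 and 10.61 in the pylorus and at 5.73 and 5.36 in the small intestine and was higher in the pylorus by 4.56 ± 0.26 (adjusted p = 2.11e-10). Cldn15, a cation-pore claudin, stood at 4.77, 3.92, 5.77 and 4.87 in the pylorus and at 9.16 and 9.36 in the small intestine and was higher in the small intestine by 4.42 ± 0.49 (adjusted p = 2.54e-06), as were Cldn3 (3.53 ± 0.43), Cldn7 (1.67 ± 0.36) and Cldn23 (1.42 ± 0.34). The other 7 were not called, and 2 of the 4 lost their call in the fit with unsorted tissue and crypts. Cldn23 was not called without small intestine replicate 1. Cdh17, an intestinal cadherin, was among the 15 largest genes of the small intestine at 2.94, 3.16, 4.28 and 5.38 in the pylorus and at 9.57 and 10.23 in the small intestine (5.96 ± 0.46).

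The hormones of endocrine cells divided between the organs. Of 15 measured, 2 were called higher in the pylorus and 6 in the small intestine. Gast stood at 12.27, 12.77, 12.80 and 12.52 in the pylorus and at 5.34 and 5.14 in the small intestine and Pyy, peptide YY, at 8.55, 10.45, 10.29 and 8.52 in the pylorus and at 6.17 and 5.70 in the small intestine (higher in the pylorus by 3.52 ± 0.54, adjusted p = 0.000152). On the intestinal side, Gip stood at 5.36, 10.39, 5.99 and 7.86 in the pylorus and at 12.00 and 11.61 in the small intestine (4.40 ± 0.92, adjusted p = 0.00321), with pyloric replicate 2 far above the other pyloric arrays. Sct, secretin (4.29 ± 0.49), Cck, cholecystokinin (3.65 ± 0.56), Gcg, proglucagon (4.12 ± 0.48), Tac1, tachykinin (5.03 ± 0.45), and Nts, neurotensin (3.06 ± 0.89), were the others.

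Sst, somatostatin, and Ghrl, ghrelin, were far above the array medians in both organs and were not called. Their means were 11.65 and 11.23 in the pylorus and 10.89 and 10.80 in the small intestine. Of 17 endocrine regulators and granule genes, 3 were called, all higher in the small intestine (17.6%, against 4.37% of all genes). These 3 were Rfx6, a factor of endocrine lineage (1.84 ± 0.27), Scg2, secretogranin II (2.18 ± 0.59), and Pax4, a homeobox factor (1.07 ± 0.32). Leaving out pyloric replicate 1, small intestine replicate 1 or small intestine replicate 2 left 1 of them, and 5 were called with all 42 arrays or without pyloric replicate 2. Neurog3, which starts the endocrine lineage, and the granule protein Chga were not called.

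Tuft cells are chemosensory cells of both epithelia. Of their 17 genes 2 were called (11.8%, near the 8.02% of all genes), both higher in the pylorus. The median over the list was 0.59. Gnat3, the alpha subunit of the taste G protein gustducin, stood at 8.37, 8.20, 8.61 and 7.55 in the pylorus and at 4.01 and 2.97 in the small intestine (4.69 ± 0.74, adjusted p = 0.000184), and Avil, advillin, differed by 1.71 ± 0.35 (adjusted p = 0.00278). Without small intestine replicate 1 only 1 tuft cell gene was called, Gnat3, and with all 42 arrays 4 were. The lineage factor Pou2f3 (adjusted p = 0.407) and the kinase Dclk1 (adjusted p = 0.118) did not pass.

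No listed gene of the cell cycle passed the limma test. Of 17 genes of the G1/S phases and 21 of the G2/M phases 0 were called, against 8.02% of all genes. At an unadjusted p under 0.05 there were 0 and 2, against 4636 of all 22180 genes. The medians were -0.25 and -0.40, toward the small intestine. Mki67, a marker of dividing cells, stood at 9.56, 9.03, 7.76 and 9.05 in the pylorus and at 8.86 and 9.40 in the small intestine (0.28 ± 0.36 toward the small intestine, adjusted p = 0.689). The organs overlapped, and pyloric replicate 3 was the lowest array.

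Of 23 genes of intestinal stem cells, 3 were called higher in each organ (13.0% each way). Over all genes the shares were 3.64% for the pylorus and 4.37% for the small intestine. Olfm4, a secreted glycoprotein of intestinal stem cells, had by far the largest difference of these, at 4.62, 4.30, 4.00 and 6.28 in the pylorus and at 9.56 and 10.51 in the small intestine (5.24 ± 0.55, adjusted p = 1.1e-06). Hopx (2.20 ± 0.33) and Smoc2 (1.70 ± 0.48) were also higher in the small intestine, but Smoc2 lost its call with the other reporter line and without any 1 array but pyloric replicate 4. Prom1 (1.36 ± 0.27), the adhesion receptor Cd44 (1.73 ± 0.43) and the factor Sox9 (1.50 ± 0.42) were higher in the pylorus, and without small intestine replicate 1 none of these 3 was called. With all 42 arrays in the fit, 5 stem cell genes were called in each direction. Higher in the pylorus were 1 with only the 6 arrays in the fit and 6 with the pyloric arrays of the other reporter line. Ascl2, a Wnt-driven stem cell factor, was not called. Of 18 Wnt target and feedback genes 2 were called (11.1%, near the 8.02% of all genes). These were Cd44 and Sox9, both higher in the pylorus, and the list median was 0.35. The count was 0 with only the 6 arrays or without small intestine replicate 1, 1 without small intestine replicate 2 or pyloric replicate 1 or 2, 4 with all 42 arrays (and 1 in the small intestine), and 5 with the other reporter line. Axin2, a feedback inhibitor, stood at 4.87, 5.40, 5.04 and 5.47 in the pylorus and at 5.90 and 6.78 in the small intestine and did not pass (adjusted p = 0.0868).

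Of 25 Hox genes, which pattern the body axis, 1 was called (4%, against 8.02% of all genes). This was Hoxd9 (0.83 ± 0.25, adjusted p = 0.042), with means of 2.95 and 2.13, under the array medians. It was called under 5 of 16 alternatives. With only the 6 arrays in the fit, the other reporter line, or any 1 array but pyloric replicate 2 left out, 0 Hox genes were called. Of 13 immediate early genes, which respond to handling of cells, 0 were called by limma, with a median of -0.69. At an unadjusted p under 0.05 there was 1, against 4636 of all 22180 genes. Their mean was 8.08 in small intestine replicate 1, 6.61 in replicate 2 and 6.39 to 7.13 in the pyloric arrays.

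Loci of microRNAs were read by 484 genes with a Mir symbol. Of these 13 were called (2.69%, against 8.02% of all genes), and in 6 of the 13 the brighter group lay above the array medians. The following genes were picked after their values were seen. Mir215 stood at 3.74, 3.99, 2.49 and 3.43 in the pylorus and at 10.09 and 8.49 in the small intestine, higher there by 5.88 ± 0.60 (adjusted p = 8.56e-07). Its neighbour Mir194-1 stood at 4.43, 4.51, 4.50 and 4.73 in the pylorus and at 8.62 and 6.68 in the small intestine, higher there by 3.10 ± 0.35 (adjusted p = 3.41e-06). Neither overlapped between the organs.

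The pair lies on chromosome 1, with hairpins at chr1:185313581-185313692 and chr1:185313319-185313385 (GRCm38.p6, plus strand). Related hairpins on chromosome 19, Mir192 and Mir194-2, were not called (adjusted p = 0.236 and 0.482). The mature sequences from RefSeq are printed to show what these loci share, with the seed, bases 2 to 8, in capitals.
mmu-miR-215-5p: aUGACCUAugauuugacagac
mmu-miR-192-5p: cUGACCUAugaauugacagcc
mmu-miR-194-5p: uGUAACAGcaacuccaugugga
The seeds of miR-215 and miR-192 are the same, UGACCUA, and that of miR-194 is GUAACAG. The arrays read RNA from amplified total RNA over the hairpin loci, so the values say nothing of the mature miRNAs.

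Markers of other cell types were checked in both organs. At an unadjusted p under 0.05, the cutoff given below beside the calls, there were 4636 of all 22180 genes. Of 12 genes of T and NK cells 0 were called by limma (4 at an unadjusted p under 0.05). The means over the list were 4.09 and 4.32 in the small intestine and 3.65 to 3.89 in the pylorus. Of these 2 had a mean above the array medians in the pylorus and 4 in the small intestine. Cd3e, a subunit of the T cell receptor complex, lay at or under 4.10 on every array. Ccl5, a chemokine, stood at 6.01, 4.25, 4.24 and 4.46 in the pylorus and at 6.05 and 6.61 in the small intestine (1.59 ± 0.74 toward the small intestine, adjusted p = 0.23). Gzma, a granzyme, lay between 2.83 and 3.93 in the pylorus and at 4.25 and 5.40 in the small intestine (1.51 ± 0.48 toward the small intestine, adjusted p = 0.0581), and was called under 6 of 16 alternatives, among them the fit without pyloric replicate 2. Their part in the other results was not tested. None of the 6 genes of B and plasma cells, 7 of endothelium and 9 of squamous forestomach was called by limma, with 0, 2 and 1 at an unadjusted p under 0.05. Of 11 genes of fibroblasts and smooth muscle 1 was called (9.09%, near the 8.02% of all genes). This was Vim, higher in the small intestine (1.47 ± 0.38, adjusted p = 0.0175) but not called without small intestine replicate 1. The collagen gene Col1a1 lay between 4.01 and 5.10 on all 6 arrays.

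Myeloid and mast cell genes moved with the organ in part. Of 12, 3 were called higher in the pylorus (25%, against 3.64% of all genes). In the small intestine 2 were (16.7%, against 4.37%), and the list median was 0.16 toward the pylorus. Mcpt2, a mucosal mast cell protease, stood at 5.87, 8.84, 7.37 and 7.43 in the pylorus and at 2.51 and 2.97 in the small intestine (4.64 ± 0.77, adjusted p = 0.000336), with no overlap. Mcpt1 (2.72 ± 0.79) and Cpa3 (2.03 ± 0.48) were called in the same direction, but only 1 of the 3 was called when either small intestinal array was left out or the pyloric arrays of the other reporter line were used. Kit, the mast cell receptor, was not called (difference 0.37 ± 0.31 toward the small intestine, adjusted p = 0.524). Nor were the other myeloid genes of the list, Csf1r, Adgre1, Itgax, Itgam, Fcer1g and Tyrobp. Small intestine minus pylorus, these ran from -0.77 ± 0.25 for Adgre1 (limma adjusted p = 0.0608) to 0.70 ± 0.28 for Itgam (adjusted p = 0.148). Cd68 (2.00 ± 0.51) and Lyz2 (2.01 ± 0.54), of macrophages, were higher in the small intestine. Neither was called without small intestine replicate 1, and Lyz2 was not without pyloric replicate 3. Their part in the other results was not tested.

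Of 9 pancreatic acinar genes 3 were called, all higher in the pylorus. Cela1, an elastase, stood at 10.53, 10.24, 10.07 and 10.96 in the pylorus and at 5.25 and 5.58 in the small intestine (5.03 ± 0.37, adjusted p = 7.01e-09), and the trypsin genes Try4 (2.56 ± 0.24) and Try5 (1.53 ± 0.33) followed. With the other reporter line in place of the pyloric arrays 1 of the 3 was called. Cel, carboxyl ester lipase, stood at 4.62, 5.25, 4.27 and 7.72 in the pylorus and at 3.65 and 3.80 in the small intestine, with pyloric replicate 4 far above the rest, and was not called (1.74 ± 0.60 toward the pylorus, adjusted p = 0.0866), although it was with all 42 arrays or without pyloric replicate 3. Of the 9 acinar genes 4 had a mean above the array medians in the pylorus and 3 in the small intestine. Cpa1 lay between 2.34 and 3.18 in the pylorus, Cela3b between 2.14 and 3.62 and Prss2 between 2.60 and 4.04. Epithelial genes were high in both organs, with list means of 9.32 to 9.61 in the pylorus and 9.44 and 10.21 in the small intestine. Krt18 was higher in the pylorus (1.23 ± 0.24) and Cldn7 and Epcam (0.89 ± 0.27, adjusted p = 0.0467) in the small intestine. Krt18 was not called without small intestine replicate 1, Epcam not without pyloric replicate 2, 3 or 4, and neither Cldn7 nor Epcam without small intestine replicate 2.

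Whether the organ difference of dim cells was also seen in bright ones was asked with the 4 pyloric and 2 small intestinal Lgr5Hi arrays. In those 2692 genes were called (12.1%). Of the 1778 genes called in Lgr5Lo cells 1110 were called there too, which is 62.4% of the one set and 41.2% of the other, and 1109 of them had the same sign. The difference of the organ differences was called in 7 genes (0.0316%), with 1607 at an unadjusted p under 0.05 (7.25%). A gene that missed this test is not shown to differ by the same amount in both gates.

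Afp, alpha-fetoprotein, stood at 5.67 and 6.99 in small intestinal Lgr5Hi cells and at 10.22 and 9.56 in Lgr5Lo cells, and its pyloric arrays stayed between 3.42 and 4.52 in both gates. The organ difference was 3.72 ± 0.49 larger in dim cells (adjusted p = 0.00354). Cyp4f14 differed in the same direction, at 3.86 and 5.14 in Lgr5Hi and 6.56 and 7.47 in Lgr5Lo cells of the small intestine (adjusted p = 0.0429). Cyp2e1, a cytochrome P450, ran the other way, at 8.53 and 8.24 in small intestinal Lgr5Hi cells and 5.05 and 5.91 in Lgr5Lo cells, with pyloric means of 3.82 and 3.85 (2.94 ± 0.39, adjusted p = 0.00354).

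In Cacna2d1, Rsph9, Slc9a3 and Slc28a3 the pyloric mean was higher in bright cells and the small intestinal mean was higher in dim cells. For Rsph9 the small intestinal means were close, at 4.33 in bright and 4.62 in dim cells. Slc9a3 had bright and dim means of 10.34 and 8.41 in the pylorus and of 4.88 and 6.96 in the small intestine. Those of Slc28a3 were 6.55 and 5.43 in the pylorus and 4.91 and 6.56 in the small intestine. Cacna2d1, an auxiliary calcium channel subunit, had pyloric means of 8.46 ± 0.41 (SD, n = 4) in Lgr5Hi and 6.28 ± 0.55 (n = 4) in Lgr5Lo cells, and small intestinal means of 2.97 ± 0.58 and 4.37 ± 0.36 (n = 2 each). The organ difference was therefore 5.49 ± 0.35 in bright and 1.91 ± 0.35 in dim cells (adjusted p of the change = 0.00354). Rsph9, a radial spoke protein of cilia, differed by 4.13 ± 0.26 and 1.55 ± 0.26 (adjusted p = 0.00395), and Slc9a3, a sodium-proton exchanger, by 5.46 ± 0.48 and 1.45 ± 0.48 (adjusted p = 0.0311), the latter not called by itself (adjusted p = 0.069). Slc28a3, a nucleoside transporter, changed sign, with the pylorus higher by 1.64 ± 0.31 in bright cells and the small intestine higher by 1.13 ± 0.31 in dim cells (adjusted p = 0.0208). With the pyloric arrays of the other reporter line (mean 6.70, against 6.56 in the small intestine) its dim-cell difference was 0.14 toward the pylorus (adjusted p = 0.826), and its dim-cell call was lost without pyloric replicate 2 or 3 or either small intestinal array. Without pyloric replicate 3 the count of such genes was 20.

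**Figure D5:**
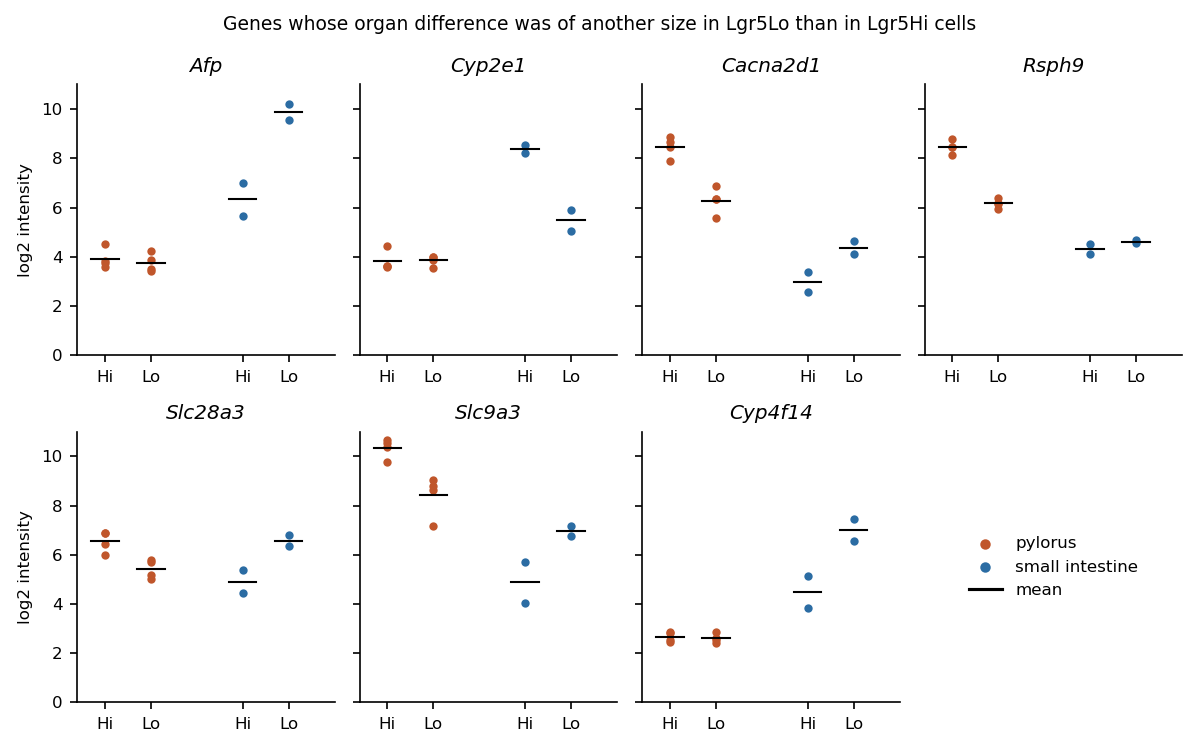
Log2 intensity in Lgr5Hi (Hi) and Lgr5Lo (Lo) cells of pylorus and small intestine for the 7 genes whose organ difference changed between gates; each point is 1 array and the bar is the group mean. In the small intestine Afp, Cyp4f14, Slc28a3, Slc9a3, Cacna2d1 and, by little, Rsph9 have a higher mean in Lo than in Hi cells. In the pylorus Cacna2d1, Rsph9, Slc9a3 and Slc28a3 stand higher in Hi than in Lo cells.

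The 3 colonic Lgr5Lo arrays of the same line give levels to set beside these. Cdx2 had a mean of 8.03 in the colon, Cldn15 of 9.18, Vdr of 9.49 and Mgam of 9.06, against 7.76, 9.26, 9.39 and 9.31 in the small intestine, and none of these passed the limma test between small intestine and colon. Sis, Lct, Mttp, Enpep and Defa22 had colonic means of 3.47, 3.71, 3.72, 3.44 and 2.81, at the level of the pylorus or under the array medians. Otc lay between, at 6.56 in the colon. On the Paneth list, Ang4 and Guca2b had colonic means of 11.44 and 9.18, against 11.15 and 10.41 in the small intestine. Neither passed the limma test between these organs (adjusted p = 0.924 and 0.111). Mmp7 and Itln1 of that list had colonic means of 5.80 and 7.93, against 10.58 and 10.67. Both were called higher in the small intestine, as was Defa22. Of all genes 472 were called higher in small intestinal than in colonic Lgr5Lo cells (2.13%). That comparison shares the small intestinal arrays with the one above, so its values are set beside it and are no second test.

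Pyloric Lgr5Lo cells of the Lgr5-EGFP-DTR line were not tested against those of the first line. In their 3 arrays Tff1 had a mean of 12.40, Sis of 2.66, Cdx2 of 3.71 and Defa22 of 2.24. Atp4a had a mean of 8.56 there and 11.27 in the first line, and Aqp5 of 9.52 and 8.17. With these arrays in place of the 4 pyloric ones 3187 genes were called, 1409 of them also called in the main comparison.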

How the data were processed

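RNA of the sorted cells was measured on Affymetrix arrays. The authors deposited log2 intensities for 41345 probe sets on 42 arrays. The submitters' processing notes name RMA, oligo, limma 3.26.8, R 3.2.3 and Partek, without order or role, and all 6 arrays have medians of 3.83 to 4.16 on that scale. Probe sets with 1 symbol (23521) were kept, 1814 with several and 16010 with none were left out, and the probe set with the highest mean stood for its gene. Of the gene identifiers 23328 matched RefSeq and 193 did not. Near-identical genes, such as the defensins, may share signal.

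Groups came from the sample titles. limma 3.58.1 in R 4.3.3 was fitted to the 18 sorted arrays of the reporter line in 6 groups, without whole tissue, and every adjusted p is its moderated test with Benjamini-Hochberg adjustment over 22180 genes. The second fit tested the organ difference in Lgr5Lo minus that in Lgr5Hi cells. Named genes were Lgr5, Aqp5 and the 4 markers, the 15 largest called differences each way without overlap (leaving out gene models, small RNAs, Xist, Tsix and Y-linked genes), up to 5 members a list, and the 10 smallest p-values of the second fit. Further members were named after their values were seen, and the members and lists were chosen with earlier results of these data known. On simulated data 86% of 100 genes changed by 2 log2 units and 21% of 100 changed by 1 were recovered, with 6 false calls. The simulation used independent noise and changed far fewer genes than were called here, so recovery in the data may differ. The number of arrays limits the precision. Alternatives were other sample sets, a replicate block, moderation, normalization, a filter on dim genes, mean probe sets and leaving out each array. Sequences are RefSeq's for GRCm38.p6.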

Additional observations from a re-analysis of the deposited data

Results flagged for a closer look

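Of the 186 named genes, 15 (8.06%) had 1 pyloric array apart from the other 3, with a gap to its nearest neighbour that made up most of the range. Chance gives such a gap in about 1 in 20 groups. The share of the range is given with each gene.

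Replicate 1 was above the others for Vsig1 (0.837), at 10.22 against 9.62 to 9.72, and for Ccl5 (0.873), at 6.01 against 4.24 to 4.46. It was below them for Atp4b (0.882), at 10.36 against 11.18 to 11.29, for the mitotic kinase Aurkb (0.831), at 5.44 against 6.94 to 7.24, and for H2-Eb1 (0.871), at 4.58 against 5.30 to 5.41. Replicate 2 was above the others for Cpa3 (0.855), at 5.76 against 3.92 to 4.18.

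Replicate 3 was above the others for Hopx (0.998), at 4.97 against 4.09, for Atoh1 (0.84), at 5.43 against 4.23 to 4.42, for Tac1 (0.905), at 4.85 against 3.14 to 3.31, and for H2-DMb1 (0.892), at 5.84 against 2.91 to 3.23. It was below them for Sox9 (0.945), at 7.19 against 8.30 to 8.37, and for H2-DMa (0.854), at 4.05 against 4.66 to 4.77. Replicate 4 was above the others for Defa21 (0.897), at 7.70 against 2.63 to 3.15, and for Mmp7 (0.848), at 5.40 against 3.42 to 3.72. It was below them for Try4 (0.925), at 6.74 against 7.25 to 7.29.

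For 7 genes the organ difference, pylorus minus small intestine, differed between dim and bright cells by the limma test of that change. Dim minus bright, the change was -3.72 for Afp, -3.58 for Cacna2d1, -4.01 for Slc9a3, -2.77 for Slc28a3, -2.58 for Rsph9 and -2.58 for Cyp4f14. It was 2.94 for Cyp2e1.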

How the results depend on the processing

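Fitting only the 6 Lgr5Lo arrays gave 1003 called genes (genes called higher in pylorus 421, genes called higher in small intestine 582). With all 42 arrays there were 2720 (1369 higher in the pylorus), and with the other reporter line in place of the pyloric arrays 3187 (1683 and 1504). Leaving out 1 array at a time gave 860 to 2110 in all, 328 to 981 higher in the pylorus and 532 to 1129 higher in the small intestine. The lowest counts came without small intestine replicate 1, and 1189 (527 higher in the pylorus) came without replicate 2. The cause was not tested. The change between gates was called in 62 genes with all 42 arrays and in 6 to 20 with 1 array left out, 20 without pyloric replicate 3. Same-numbered deviations from the group means correlated at 0.0088 and 0.0716. With 2 small intestinal arrays the deviations of 1 mirror those of the other. These values therefore cannot tell whether the replicate numbers pair the samples. The replicate block gave 2091 called genes, and 12 for the change between gates. Of 127 called named genes, 99 were called under all 16 alternatives. With the other reporter line, Cpa3 turned to -0.11 and Slc28a3 to 0.14. Centring the arrays moved the median of all genes from 0.11 to 0.04 and the pyloric share of calls from 45.4% to 38.6%. Differences of dim genes are uncertain in size, and 2 small intestinal arrays limit every count.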
